A study of Mus musculus with 12 samples.

Results

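The 50 genes described here are type I interferon-stimulated genes, chosen by name from a written list and found through the gene name that the array files give each probe. The list was drawn up with earlier results of these data known. All 50 had at least 1 of 75 probes among the 34650 gene names on the array. Of these, 48 passed the filter on dim probes and were tested with 16497 genes in all, and Oasl2 and Parp12 did not. Their levels were measured in spleen B cells of 9-week-old female BALB/c mice, in 4 groups of 3 arrays: STAT6 ko cells with IL-4, STAT6 ko cells without IL-4, WT cells with IL-4 and WT cells without IL-4. STAT6 is the transcription factor through which IL-4, a cytokine of type 2 immunity, changes gene expression in B cells. The cells of all groups, the controls without IL-4 included, had been purified by negative selection and kept for 4 days with an anti-CD40 antibody at 10 µg/ml, which stands in for T cell help, and LPS at 2 µg/ml, a bacterial ligand of Tlr4. IL-4 was given at 25 ng/ml. The comparisons ask how IL-4 changed the interferon-stimulated genes and whether that change differed in cells without STAT6. The labels speak of triplicate samples without naming separate animals, so p-values measure the spread between these samples, which may be technical. They do not name the knockout allele.

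Type I interferons (interferon beta and the interferon alphas) bind a receptor of the chains Ifnar1 and Ifnar2, and the kinases Jak1 and Tyk2 then phosphorylate STAT proteins, Stat2 among them. With Irf9 these form a complex that binds interferon-stimulated response elements (ISREs) in promoters and switches on genes whose products sense, bind or cut viral RNA, stop viruses entering and leaving cells, and tag proteins with Isg15. LPS can start the same loop in many cells, since Tlr4 signalling through Ticam1, Tbk1 and Irf3 induces interferon beta, and Irf7, itself a target, keeps it going.

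In the arrays 40.7 to 44.0% of 59305 spots were well above background and none was saturated. Arrays of a group correlated with r of 0.994 to 0.998 over all genes tested, and the SD of a member among the 3 arrays of its group had a median of 0.07 to 0.09 log2 units. Stat6 itself checked the labels: its level was 1.24 ± 0.10 in STAT6 ko controls against 3.18 ± 0.06 in WT controls (SD, n = 3 each), a log2 difference of -1.94 ± 0.08 (SE; limma adjusted p = 1.03e-06). Of 7 B cell markers, 7 were tested, with a mean level per array of 4.65 to 4.70 in STAT6 ko cells with IL-4, 4.64 to 4.72 in STAT6 ko controls, 4.40 to 4.46 in WT cells with IL-4 and 4.78 to 4.82 in WT controls. The B cell mean was thus lowest in WT cells with IL-4, where the members were lowest too: with IL-4, 3 of the 7 markers rose and 1 fell in STAT6 ko cells, and 2 rose and 4 fell in WT cells (Blk, Cd22, Cd79a and Pax5). Levels are log2 of the processed signal minus the 75th percentile of its array, so 0 is that percentile. They are compared between groups for 1 probe and never between probes. An array of mixed RNA cannot tell fewer cells of a type from less RNA per cell.

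The members were chosen by name and not by sequence. Genes of this class are switched on through ISREs, so the share with a match describes the list and is no separate support for it. The ISRE core was searched as GAAANNGAAA on both strands of RefSeq promoter windows (GRCm38.p6), which run from 250 bases before to 50 after each start site. Windows were found for 36 of the 50 members, and 16 of these (44.4%) held a match, against 1079 of 27025 genes (3.99%) with a window. The related GAS element, searched as TTCNNNGAA, was in 8 of 36 members (22.2%) and 9.55% of genes. A spacing of TTCNNNNGAA, the form that STAT6 prefers, was in 5 of 36 (13.9%) and 8.01% of genes. A GAS match shared bases with an ISRE match in Bst2 and Ifitm3, and a STAT6-type match did in Oas1a. The following stretches before the start site show the core in capitals, in 3 members that rose with IL-4 in STAT6 ko cells and fell in WT cells (Isg15, Ifit1, Rsad2), 1 that fell in both (Ifi203) and 2 with no fall in either (Bst2, Slfn5). Isg15 (chr4:156200850-156200921, minus strand) has 3 overlapping copies, Ifit1 (chr19:34640760-34640838, plus strand) 2 copies on the opposite strand, Rsad2 (chr12:26456538-26456597, minus strand) and Ifi203 (chr1:173942493-173942552, minus strand) 1 copy, Bst2 (chr8:71537562-71537627, minus strand) 2 overlapping copies and Slfn5 (chr11:82951922-82951981, plus strand) 1 copy in a run of adenines.
Isg15: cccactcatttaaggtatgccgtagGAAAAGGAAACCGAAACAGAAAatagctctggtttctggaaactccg
Ifit1: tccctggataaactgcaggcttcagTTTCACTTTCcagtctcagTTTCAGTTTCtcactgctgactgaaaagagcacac
Rsad2: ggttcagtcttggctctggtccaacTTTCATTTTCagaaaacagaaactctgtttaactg
Ifi203: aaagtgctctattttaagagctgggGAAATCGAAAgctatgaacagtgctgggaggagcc
Bst2: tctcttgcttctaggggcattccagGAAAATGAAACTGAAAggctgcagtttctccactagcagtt
Slfn5: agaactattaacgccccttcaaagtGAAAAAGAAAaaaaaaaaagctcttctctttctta

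Members with and without a match are described side by side, with no test. Of the 16 members with an ISRE core in the window, 8 rose with IL-4 in STAT6 ko cells and 14 fell in WT cells, with median log2 changes of 0.28 in STAT6 ko cells and -0.94 in WT cells. Of the 18 tested members with a window and no match, 10 rose in STAT6 ko cells and 16 fell in WT cells, with medians of 0.20 and -1.01. Of all genes tested, 27.5% were called higher in STAT6 ko cells and 30.8% lower in WT cells (limma, adjusted p under 0.05). The plot of match positions shows where the cores lie in each window. A match describes the letters in the window and does not show that a factor binds there.

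**Figure D1:**
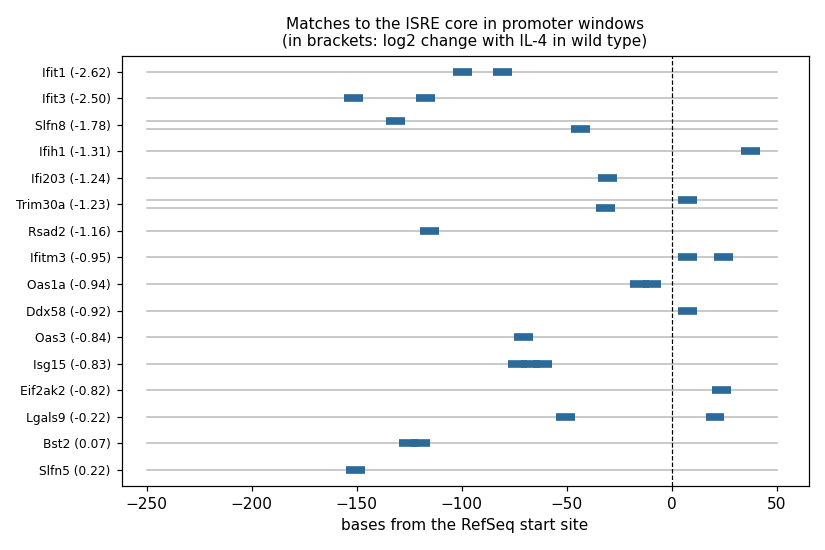
Position of each match to the ISRE core (blue bars) in the promoter windows of the 16 members that hold one, in bases from the RefSeq start site (dashed line at 0). Grey lines are windows, 1 for each start site with a match, and the number in brackets is the log2 change with IL-4 in WT cells. Members with matches range widely, as -2.62 for Ifit1 and 0.22 for Slfn5 show. The values of Ifit3 and Rsad2 rest on WT arrays with IL-4 that were not well above background.

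With IL-4 the interferon-stimulated genes more often rose than fell in STAT6 ko cells and mostly fell in WT cells. In STAT6 ko cells 24 of 48 tested members rose and 11 fell (limma, adjusted p under 0.05), where 27.5% and 14.7% of all genes did. The fitted rise was 2-fold or more for 2 members, Isg15 and the dim Rsad2 (0.788% of all genes). Rsad2 was well above background on 1 of the 3 STAT6 ko controls, so its fitted rise is no measured size. In WT cells 41 fell and 1 rose, where 30.8% and 26.4% of all genes did, and 25 fell by 2-fold or more, where 6.95% of all genes did. The median log2 change of the members was 0.21 in STAT6 ko cells and -1.06 in WT cells, beside 0.05 and -0.04 over all genes. Of the WT falls, 5 (Cmpk2, Ifit3, Mx1, Oas2 and Rsad2) were of genes with no array well above background among WT cells with IL-4. With 4 of them at their lowest supported fold and Rsad2, which has none, left out, 22 members fell by 2-fold or more and the WT median was -0.95. Cmpk2 passed the filter only through the WT controls and Rsad2 only through STAT6 ko cells with IL-4, the groups where each was high, so the filter favoured their calls. With a filter that asks for at least 2 groups, 23 members rose in STAT6 ko cells and 39 fell in WT cells. Arrays with IL-4 lay above those without it, with no overlap, for 23 members in STAT6 ko cells (29.4% of all genes), and below them for 43 in WT cells (37.4% of all genes). The difference between the responses was tested itself, as WT response minus STAT6 ko response. It was negative for 42 members (28.3% of all genes), by at least 2-fold for 29 (5.03%), and positive for 0 (16.4%). Among the 43 members other than Cmpk2, Ifit3, Mx1, Oas2 and Rsad2 it was negative for 38, by at least 2-fold for 25. At an unadjusted p under 0.05 the count of positive differences was also 0, and the largest was 0.20 for Slfn5 (limma adjusted p = 0.215).

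Sorted by both calls, 19 members rose in STAT6 ko cells and fell in WT cells, as 4.65% of all genes did: Adar, Cmpk2, Herc6, Ifi35, Ifi44, Ifih1, Ifit1, Ifit2, Ifitm3, Isg15, Lgals9, Ly6a, Oasl1, Rsad2, Rtp4, Trim30a, Usp18, Xaf1 and Zbp1. A further 12 had no call in STAT6 ko cells and fell in WT cells (17.7% of all genes), and 10 fell in both (8.43% of all genes), Sp100 and Samd9l among them. The remaining 7 had no fall in WT cells: Bst2, Daxx, Epsti1, Ly6e and Tor3a rose in STAT6 ko cells with no call in WT cells (10.3% of all genes, about the share of the members), Parp9 fell in STAT6 ko cells with no call in WT cells (4.24%), and Slfn5 rose in WT cells with no call in STAT6 ko cells (11.7%). Some STAT6 ko calls were lost with slide as a block. These were the rises of Cmpk2, Daxx, Ifi44, Ifit2, Ifitm3, Rsad2, Rtp4 and Xaf1. The falls lost were those of Eif2ak2, Ifi203, Ifi204, Lgals3bp, Parp14 and Slfn8.

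The arrays lay on 2 slides, as read from the headers of their files, and this bears on the knockout response. Slide 2 held the 3 STAT6 ko arrays with IL-4 and STAT6 ko control 3, and slide 1 the other 8 arrays. With slide as a block, so that the STAT6 ko arrays with IL-4 are set against control 3 alone, 16 of the 24 rises and 5 of the 11 falls passed (21.5% and 11.8% of all genes), and the median of the members was 0.20. Without STAT6 ko control 1, STAT6 ko control 2 or the first STAT6 ko array with IL-4, the 11 falls became 7, 5 and 6. The 2430 falls of all genes became 2461, 1935 and 1998. Scaling arrays by their median in place of the 75th percentile gave 28 rises and 2 falls of members. Of all genes, 5913 rose and 1280 fell, beside 4539 and 2430 with the main scaling. It moved the median change of all genes to 0.20 and of the members to 0.36. Quantile scaling moved these medians to 0.02 and 0.09, with 20 rises and 14 falls of members (3603 and 2880 of all genes). The authors' values gave medians of 0.01 and 0.09, with 20 rises and 13 falls of members (3546 and 2875 of all genes). In WT cells, which lie on 1 slide, all 41 falls passed (31.5% of all genes) and the 1 rise did not (26.7%). Of the 42 negative differences between responses, 42 passed with the block (26.3% of all genes), and 0 positive ones did (15.8%). Under median scaling the differences were positive for 1697 and negative for 4716 of all genes, beside 2712 and 4676, and negative for 43 members.

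**Figure D2:**
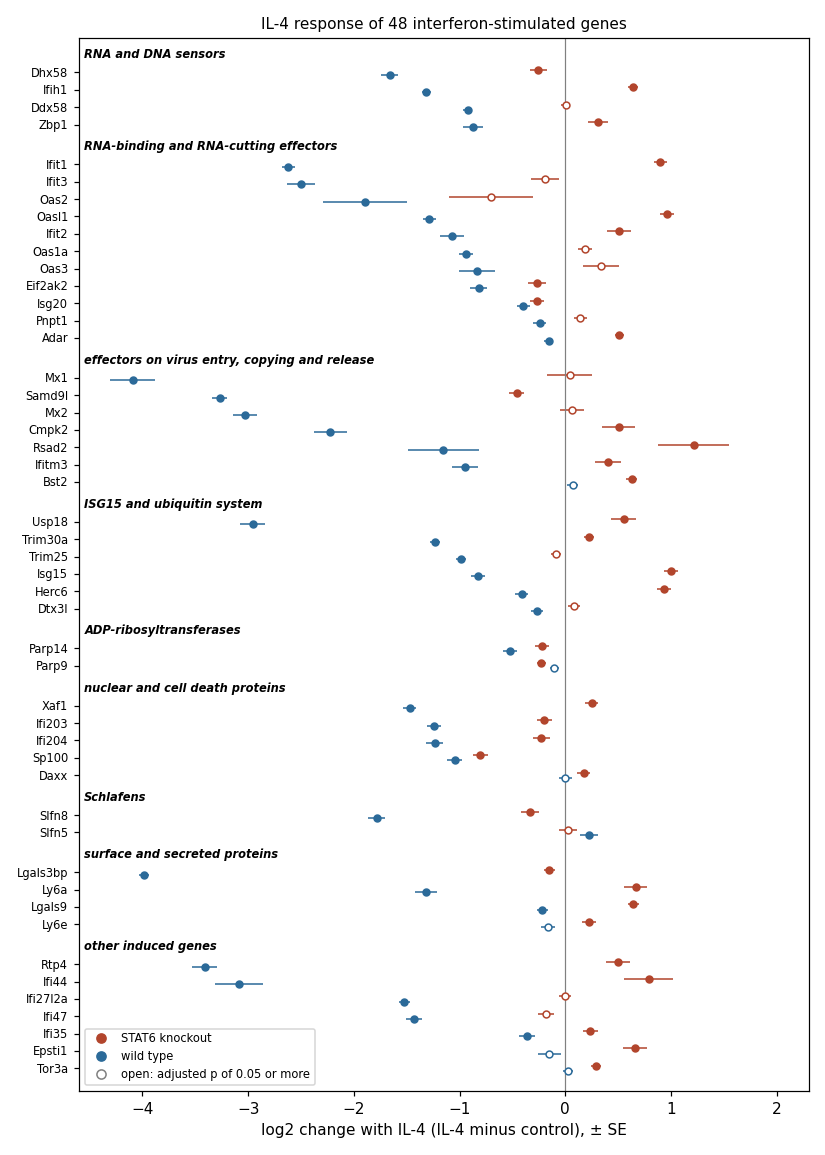
Log2 change with IL-4 (IL-4 minus control, horizontal axis) with its SE for the 48 tested members, ordered by role and then by the WT value. Red points are STAT6 ko cells, blue points WT cells, and open points had an adjusted p of 0.05 or more. Most blue points lie left of 0, as -3.98 for Lgals3bp, and red points lie on both sides, as -0.81 for Sp100 and 1.00 for Isg15. The blue points of Mx1, Ifit3, Cmpk2, Oas2 and Rsad2 are fitted to arrays with IL-4 that were not well above background and give no size. The red point of Rsad2 gives none either.

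**Figure D3:**
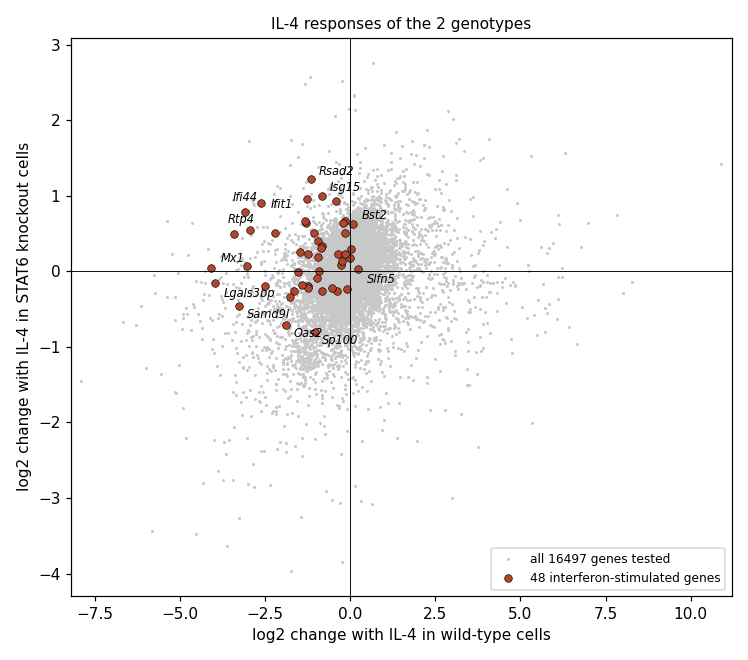
Log2 change with IL-4 in STAT6 ko cells (vertical axis) against that in WT cells (horizontal axis) for 48 members (red) and all 16497 genes tested (grey). The members gather left of 0, and the points of Mx1, Ifit3, Cmpk2, Oas2 and Rsad2 rest on WT arrays not well above background. The 19 members that rose in STAT6 ko cells and fell in WT cells lie in the upper left part of the plot.

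Of the 4 sensors of foreign nucleic acid, 2 rose and 1 fell with IL-4 in STAT6 ko cells (27.5% and 14.7% of all genes). In WT cells 4 fell (30.8% of all genes). Ifih1 encodes MDA5, which senses long double-stranded RNA. It read 3.79, 3.85 and 3.81 in STAT6 ko cells with IL-4, 3.20, 3.17 and 3.16 in STAT6 ko controls, 2.00, 2.02 and 2.04 in WT cells with IL-4 and 3.27, 3.38 and 3.36 in WT controls. The 4 groups did not overlap: WT cells with IL-4 were lowest and STAT6 ko cells with IL-4 highest. Its log2 change was 0.64 ± 0.04 in STAT6 ko cells and -1.31 ± 0.04 in WT cells (SE; limma adjusted p = 3.95e-06 and 2.90e-09). Zbp1, a sensor of Z-form nucleic acid that can trigger cell death, read 2.06, 2.03 and 1.96 in STAT6 ko cells with IL-4, 1.85, 1.72 and 1.57 in STAT6 ko controls, 1.05, 1.32 and 1.21 in WT cells with IL-4 and 1.93, 2.16 and 2.10 in WT controls. Within each genotype the arrays with and without IL-4 did not overlap, and its changes were 0.31 in STAT6 ko cells (adjusted p = 0.0226) and -0.87 in WT cells (adjusted p = 1.80e-05). Dhx58, encoding LGP2, a regulator of the other RNA sensors, changed by -0.26 in STAT6 ko cells and -1.66 in WT cells, both past the test. Ddx58, encoding RIG-I, changed by 0.00 in STAT6 ko cells (adjusted p = 0.969) and by -0.92 in WT cells (adjusted p = 3.30e-08). The STAT6 ko value of Ddx58 was below 0 under quantile scaling, at -0.12.

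Of the 11 tested genes whose products bind or cut RNA, 4 rose and 2 fell in STAT6 ko cells (27.5% and 14.7% of all genes). In WT cells 11 fell (30.8% of all genes). Ifit1, which binds viral RNA that lacks a host-type cap, was read by a probe at chr19:34723796-34723855 (mm9, plus strand) and measured 1.64, 1.65 and 1.77 in STAT6 ko cells with IL-4, 0.72, 0.84 and 0.82 in STAT6 ko controls, -1.34, -1.26 and -1.22 in WT cells with IL-4 and 1.25, 1.35 and 1.43 in WT controls. Every group stood clear of the others, with STAT6 ko cells with IL-4 highest. Ifit1 rose 1.86-fold in STAT6 ko cells and was 6.14-fold lower with IL-4 in WT cells, and its responses differed by -3.52 ± 0.09 (adjusted p = 1.39e-09). Its neighbours on chromosome 19, Ifit2 and Ifit3, form complexes with it. Ifit2 rose by 0.51 in STAT6 ko cells and changed by -1.07 in WT cells. Ifit3 changed by -0.19 in STAT6 ko cells (adjusted p = 0.279). In WT cells Ifit3 was too dim on all 3 arrays with IL-4 to be well above background, and it was at least 2.22-fold lower there (adjusted p = 9.99e-08).

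Oasl1 lacks the enzyme activity of its family and in mice holds back translation of Irf7. It read 6.36, 6.35 and 6.37 in STAT6 ko cells with IL-4, 5.51, 5.27 and 5.42 in STAT6 ko controls, 4.49, 4.55 and 4.53 in WT cells with IL-4 and 5.77, 5.89 and 5.77 in WT controls, again with no overlap between groups. It rose 1.95-fold in STAT6 ko cells (adjusted p = 3.29e-06) and fell 2.44-fold in WT cells (adjusted p = 5.02e-08). Oas1a, Oas2 and Oas3 make the oligoadenylates that activate RNase L. In STAT6 ko cells their changes were 0.19 for Oas1a, -0.71 for Oas2 and 0.34 for Oas3, none past the test. In WT cells with IL-4 Oas1a changed by -0.94 and Oas3 by -0.84, while Oas2 was not well above background on any array and at least 1.46-fold lower (adjusted p = 0.00212). Eif2ak2 encodes PKR, a kinase that stops translation on sensing double-stranded RNA. It read 0.19, 0.46 and 0.18 in STAT6 ko cells with IL-4, 0.60, 0.59 and 0.44 in STAT6 ko controls, -0.18, 0.00 and -0.10 in WT cells with IL-4 and 0.72, 0.73 and 0.73 in WT controls. It fell in both genotypes, with changes of -0.27 ± 0.08 in STAT6 ko cells, where arrays overlapped (adjusted p = 0.0249), and -0.82 ± 0.08 in WT cells (adjusted p = 1.22e-05). The fall in STAT6 ko cells was lost with slide as a block (-0.16, adjusted p = 0.289). Isg20, an RNA exonuclease, fell in both, with changes of -0.27 in STAT6 ko cells and -0.40 in WT cells, and the test of the difference gave -0.13 (adjusted p = 0.266). Adar, which edits adenosine to inosine in double-stranded RNA, rose by 0.51 in STAT6 ko cells and changed by -0.16 in WT cells. Pnpt1, a mitochondrial RNA-degrading enzyme, changed by 0.14 in STAT6 ko cells (adjusted p = 0.103) and -0.24 in WT cells (adjusted p = 0.00809). Oasl2, not tested, had 2 arrays well above background.

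Of the 7 effectors on virus entry, copying and release, 4 rose and 1 fell in STAT6 ko cells (27.5% and 14.7% of all genes). In WT cells 6 fell (30.8% of all genes). Mx1 encodes a GTPase that blocks influenza viruses in the nucleus, and many inbred strains, BALB/c among them, carry a defective allele. Its probe (chr16:97668644-97668703, mm9, minus strand) read -0.68, -0.21 and -0.28 in STAT6 ko cells with IL-4, -0.56, -0.35 and -0.38 in STAT6 ko controls, -4.12, -4.72 and -5.11 in WT cells with IL-4 and -0.65, -0.50 and -0.53 in WT controls. The WT arrays with IL-4 stood apart from the other 9, and on none of them was the probe well above background. Its change in STAT6 ko cells was 0.04 ± 0.21 (adjusted p = 0.895). In WT cells Mx1 was at least 9.66-fold lower with IL-4 (adjusted p = 8.11e-08), a bound set by the lowest signals well above background. Mx2, its neighbour and a relative, read 1.26, 1.48 and 1.51 in STAT6 ko cells with IL-4, 1.12, 1.50 and 1.43 in STAT6 ko controls, -1.82, -1.78 and -2.12 in WT cells with IL-4 and 1.10, 1.18 and 1.09 in WT controls. The STAT6 ko groups overlapped, and the same 3 WT arrays were low, with a change of -3.03 ± 0.12 (adjusted p = 8.51e-09).

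Samd9l, which restricts poxviruses, was high in the controls of both genotypes. It read 3.36, 3.43 and 3.26 in STAT6 ko cells with IL-4, 3.91, 3.84 and 3.67 in STAT6 ko controls, 0.82, 0.80 and 0.73 in WT cells with IL-4 and 3.97, 4.11 and 4.07 in WT controls. It fell 1.37-fold in STAT6 ko cells (adjusted p = 0.000654) and 9.64-fold in WT cells (adjusted p = 1.71e-10), so that the responses had the same sign and differed by -2.81 ± 0.10 (adjusted p = 1.62e-08). Rsad2 encodes viperin, which makes a chain-terminating nucleotide. It was dim, reading -2.31, -2.18 and -2.11 in STAT6 ko cells with IL-4, -3.55, -3.35 and -3.35 in STAT6 ko controls, -3.74, -5.44 and -4.14 in WT cells with IL-4 and -3.40, -3.09 and -3.35 in WT controls. The 3 STAT6 ko arrays with IL-4 were the highest and the 3 WT arrays with IL-4 the lowest, and none of the WT arrays with IL-4 was well above background. The probe was well above background on 3 arrays of STAT6 ko cells with IL-4, 1 of STAT6 ko controls, 0 of WT cells with IL-4 and 2 of WT controls, so the size of its changes with IL-4 cannot be given. The calls were a rise in STAT6 ko cells (adjusted p = 0.0151; 0.105 with slide as a block) and a fall in WT cells (adjusted p = 0.0133), the second lost when the compared arrays alone set the spread. Cmpk2, a nucleotide kinase gene next to Rsad2 on chromosome 12, was well above background on 2 arrays of STAT6 ko cells with IL-4, 1 of STAT6 ko controls, 0 of WT cells with IL-4 and 3 of WT controls. It was called higher with IL-4 in STAT6 ko cells (adjusted p = 0.0248) and at least 1.31-fold lower in WT cells, the group of WT controls being the one that passed it through the filter. Ifitm3, which stops virus membranes fusing in endosomes, changed by 0.40 in STAT6 ko cells and -0.95 in WT cells, both past the test. The exception was Bst2, tetherin, which holds budding virus at the cell surface. It rose by 0.63 ± 0.06 in STAT6 ko cells (adjusted p = 1.78e-05) and changed by 0.07 ± 0.06 in WT cells (adjusted p = 0.305).

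**Figure D4:**
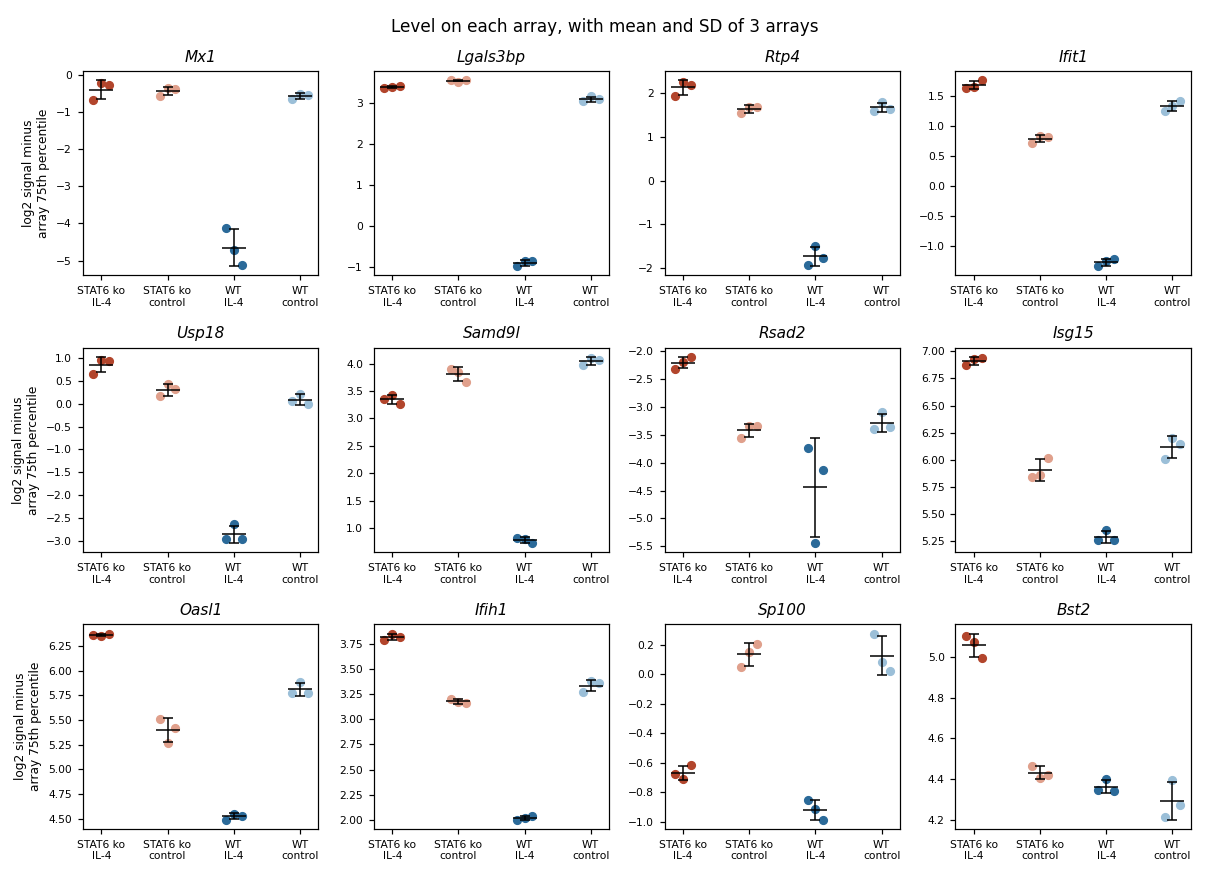
Level of 12 members on each array (points; log2 signal minus the array's 75th percentile) with mean and SD of 3 arrays, for STAT6 ko cells with IL-4 and without, then WT cells with IL-4 and without. Vertical scales differ between panels. In most panels the WT arrays with IL-4 lie below the other 9, as for Mx1 and Lgals3bp. Sp100 was low in both IL-4 groups, and Bst2 was high in STAT6 ko cells with IL-4.

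Of the 6 genes of the ISG15 and ubiquitin system, 4 rose and 0 fell with IL-4 in STAT6 ko cells (27.5% and 14.7% of all genes). In WT cells 6 fell (30.8% of all genes). Isg15, a ubiquitin-like protein that is attached to other proteins, read 6.87, 6.92 and 6.94 in STAT6 ko cells with IL-4, 5.84, 5.86 and 6.02 in STAT6 ko controls, 5.26, 5.35 and 5.26 in WT cells with IL-4 and 6.01, 6.20 and 6.15 in WT controls. STAT6 ko cells with IL-4 were the highest group and WT cells with IL-4 the lowest, with the controls overlapping between genotypes. It rose 2.00-fold in STAT6 ko cells (1.00 ± 0.07, adjusted p = 3.29e-06) and fell 1.78-fold in WT cells (-0.83 ± 0.07, adjusted p = 1.89e-06). Usp18, which takes ISG15 off proteins and shuts the interferon receptor down, read 0.66, 0.97 and 0.94 in STAT6 ko cells with IL-4, 0.17, 0.43 and 0.33 in STAT6 ko controls, -2.97, -2.65 and -2.97 in WT cells with IL-4 and 0.06, 0.22 and -0.01 in WT controls. It rose 1.47-fold in STAT6 ko cells (adjusted p = 0.00398), where all 3 arrays with IL-4 were above the 3 without, and fell 7.76-fold in WT cells (adjusted p = 1.05e-08). Herc6, the ligase that attaches ISG15 in mice, read 0.31, 0.30 and 0.33 in STAT6 ko cells with IL-4, -0.58, -0.63 and -0.64 in STAT6 ko controls, -0.75, -0.73 and -0.70 in WT cells with IL-4 and -0.47, -0.21 and -0.26 in WT controls. STAT6 ko cells with IL-4 stood above the other 9 arrays. It rose 1.91-fold in STAT6 ko cells (adjusted p = 3.81e-06) and fell 1.33-fold in WT cells (adjusted p = 0.000248). Trim30a, which dampens Toll-like receptor signalling in mice, changed by 0.23 in STAT6 ko cells and -1.23 in WT cells, both past the test. Trim25, a ubiquitin ligase that acts on RIG-I, changed by -0.09 in STAT6 ko cells (adjusted p = 0.144) and -0.98 in WT cells (adjusted p = 4.46e-08). Dtx3l, the ligase partner of Parp9, changed by 0.08 in STAT6 ko cells (adjusted p = 0.287) and -0.27 in WT cells (adjusted p = 0.00216).

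Of the 2 tested ADP-ribosyltransferases, 2 fell in STAT6 ko cells (14.7% of all genes) and 1 in WT cells (30.8% of all genes). Parp9, which works as a pair with Dtx3l, read 2.01, 2.07 and 2.13 in STAT6 ko cells with IL-4, 2.28, 2.33 and 2.28 in STAT6 ko controls, 2.23, 2.24 and 2.26 in WT cells with IL-4 and 2.32, 2.35 and 2.37 in WT controls. It was lowest in STAT6 ko cells with IL-4, with a change of -0.23 ± 0.04 there (adjusted p = 0.00200) and a change of -0.10 ± 0.04 in WT cells (adjusted p = 0.0608). Parp14, known as a coactivator of STAT6 as well as an interferon-stimulated gene, changed by -0.22 in STAT6 ko cells and -0.53 in WT cells (adjusted p = 0.0256 and 8.26e-05). Parp12 was too dim on all 12 arrays to be well above background, and was not tested.

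Of the 5 nuclear and cell death genes, 2 rose and 3 fell in STAT6 ko cells (27.5% and 14.7% of all genes). In WT cells 4 fell (30.8% of all genes). Sp100, a component of nuclear bodies that silence incoming viral genomes, was the member with the largest called fall in STAT6 ko cells. It read -0.68, -0.71 and -0.62 in STAT6 ko cells with IL-4, 0.05, 0.16 and 0.21 in STAT6 ko controls, -0.85, -0.92 and -0.99 in WT cells with IL-4 and 0.28, 0.08 and 0.02 in WT controls. Both IL-4 groups were low and both control groups high, with no overlap between them. The changes were -0.81 ± 0.07 in STAT6 ko cells and -1.04 ± 0.07 in WT cells (adjusted p = 2.00e-05 and 6.56e-07), and the test of their difference gave -0.24 ± 0.10 (adjusted p = 0.0801). With slide as a block the fall in STAT6 ko cells was -0.87 (adjusted p = 0.000473). Daxx, a histone chaperone of the same bodies, changed by 0.17 in STAT6 ko cells (adjusted p = 0.0460) and by 0.00 in WT cells (adjusted p = 0.978). Its STAT6 ko arrays with and without IL-4 overlapped. The call was lost in 16 of the reruns with other settings or 1 array left out. Xaf1, which opposes an inhibitor of cell death, changed by 0.25 in STAT6 ko cells and -1.47 in WT cells, both past the test. Ifi203 and Ifi204, nuclear proteins of the DNA-binding p200 family, changed by -0.20 for Ifi203 and -0.23 for Ifi204 in STAT6 ko cells. In WT cells both changed by -1.24, and all these passed the test. The STAT6 ko falls of both were lost with slide as a block, under median scaling and with another background correction. Another probe of each gene, described below, was called lower in STAT6 ko cells.

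Schlafen genes are induced by interferon and restrain growth or RNA in several cell types. Slfn8 read 1.37, 1.42 and 1.37 in STAT6 ko cells with IL-4, 1.85, 1.77 and 1.55 in STAT6 ko controls, 0.09, 0.01 and -0.01 in WT cells with IL-4 and 1.88, 1.89 and 1.67 in WT controls. In each genotype the arrays with IL-4 were below those without. The changes were -0.33 ± 0.08 in STAT6 ko cells (adjusted p = 0.00869) and -1.78 ± 0.08 in WT cells (adjusted p = 3.30e-08). The smaller fall was lost with slide as a block (-0.16, adjusted p = 0.200). Slfn5 read 1.15, 0.81 and 1.04 in STAT6 ko cells with IL-4, 0.94, 0.95 and 1.03 in STAT6 ko controls, 1.26, 1.42 and 1.16 in WT cells with IL-4 and 1.04, 1.07 and 1.05 in WT controls. It was the 1 member called higher with IL-4 in WT cells, by 0.22 ± 0.09 (adjusted p = 0.0485). That call was lost under 5 of 10 other processing settings and without any 1 of 9 arrays.

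Among surface and secreted proteins, 3 of 4 rose and 1 fell with IL-4 in STAT6 ko cells (27.5% and 14.7% of all genes). In WT cells 3 fell (30.8% of all genes). Lgals3bp, a secreted glycoprotein that binds galectins, was read by a probe at chr11:118254070-118254129 (mm9, minus strand) and measured 3.37, 3.40 and 3.41 in STAT6 ko cells with IL-4, 3.55, 3.53 and 3.55 in STAT6 ko controls, -0.97, -0.85 and -0.84 in WT cells with IL-4 and 3.04, 3.16 and 3.09 in WT controls. The WT arrays with IL-4 lay far below the other 9. Its change in STAT6 ko cells was -0.15 ± 0.05 (adjusted p = 0.0328), with slide as a block -0.16 (adjusted p = 0.117) and under median scaling 0.00. It fell 15.8-fold in WT cells (-3.98 ± 0.05, adjusted p = 3.93e-12). Ly6a, also known as Sca-1, read 5.28, 5.29 and 5.22 in STAT6 ko cells with IL-4, 4.71, 4.59 and 4.49 in STAT6 ko controls, 3.32, 3.52 and 3.13 in WT cells with IL-4 and 4.49, 4.80 and 4.64 in WT controls. The 3 STAT6 ko arrays with IL-4 were highest and the 3 WT arrays with IL-4 lowest, with changes of 0.66 ± 0.11 and -1.32 ± 0.11 (adjusted p = 0.000720 and 2.11e-06). Lgals9, galectin-9, rose by 0.64 in STAT6 ko cells (adjusted p = 1.10e-05) and changed by -0.22 in WT cells (adjusted p = 0.00449). Ly6e, a receptor for some viruses and a restriction factor for others, changed by 0.22 in STAT6 ko cells (adjusted p = 0.0227) and -0.16 in WT cells (adjusted p = 0.0612).

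Of the 7 other induced genes, 5 rose and 0 fell in STAT6 ko cells (27.5% and 14.7% of all genes). In WT cells 5 fell (30.8% of all genes). Rtp4, a chaperone of membrane receptors, read 1.95, 2.26 and 2.20 in STAT6 ko cells with IL-4, 1.54, 1.69 and 1.68 in STAT6 ko controls, -1.93, -1.49 and -1.78 in WT cells with IL-4 and 1.60, 1.79 and 1.65 in WT controls. The WT arrays with IL-4 were lowest, and the STAT6 ko arrays with IL-4 lay above the other 9. It rose 1.41-fold in STAT6 ko cells (adjusted p = 0.00656), which was lost with slide as a block (adjusted p = 0.0707), and changed by -3.41 ± 0.12 in WT cells (adjusted p = 3.71e-09). Ifi44 read 0.02, 0.22 and 0.12 in STAT6 ko cells with IL-4, -0.87, -0.59 and -0.53 in STAT6 ko controls, -3.41, -4.23 and -4.53 in WT cells with IL-4 and -1.07, -0.85 and -0.99 in WT controls. The rise of 0.79 ± 0.23 in STAT6 ko cells (adjusted p = 0.0197) was lost with slide as a block (adjusted p = 0.163). The change in WT cells was -3.09 ± 0.23 (adjusted p = 1.20e-06), where 1 of the 3 arrays with IL-4 was well above background. Ifi27l2a had changes of 0.00 in STAT6 ko cells (adjusted p = 0.964) and -1.52 in WT cells (adjusted p = 4.44e-09). Ifi47, an immunity-related GTPase, changed by -0.18 in STAT6 ko cells (adjusted p = 0.0779) and -1.43 in WT cells (adjusted p = 9.80e-08). Ifi35 changed by 0.24 in STAT6 ko cells and -0.36 in WT cells, both past the test. Epsti1 and Tor3a rose in STAT6 ko cells, by 0.66 for Epsti1 and 0.29 for Tor3a, and changed by -0.15 (adjusted p = 0.276) and 0.03 (adjusted p = 0.650) in WT cells. The rise of Tor3a was not called with the other probe for this gene.

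Without IL-4 the genotypes were close. In STAT6 ko controls 10 members were lower than in WT controls and 2 higher, where 6.96% and 4.73% of all genes were, and the median was -0.08 beside -0.04 over all genes. Ifit1 was lowest, at -0.55 ± 0.06 (adjusted p = 0.000982), followed by Oasl1 at -0.41 ± 0.06 (adjusted p = 0.00563) and Zbp1 at -0.35 ± 0.09 (adjusted p = 0.0381). The 2 higher genes were Lgals3bp, at 0.45 ± 0.05 (adjusted p = 0.000903), and Oas1a, at 0.31 ± 0.07 (adjusted p = 0.0263). With slide as a block, which sets STAT6 ko controls 1 and 2 against the WT controls of their slide, Ifit1, Oasl1 and Lgals3bp passed and the other 9 did not (1.62% of all genes lower and 0.903% higher). Leaving out WT control 2 or 3, or STAT6 ko control 2 or 3, left 2 members lower. In the same order 257, 255, 250 and 275 of all genes were lower, beside 1149. Leaving out WT control 1 left 3 members and 385 of all genes lower. Leaving out the third WT or the second STAT6 ko array with IL-4 left 6 members, and 722 and 837 of all genes. The higher members became 1 without WT control 1 or 3 or STAT6 ko control 2 or 3. In these runs 210, 131, 164 and 170 of all genes were higher, beside 780. Under median scaling 21 members were lower and 0 higher, and 5103 of all genes lower and 466 higher, beside 1149 and 780, with the median of all genes at -0.22.

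With IL-4, 42 members were higher in STAT6 ko cells than in WT cells and 2 lower, where 29.8% and 21.3% of all genes were, and 26 were higher by 2-fold or more (4.63% of all genes). With Ifit3, Mx1 and Rsad2 at their bounds and Cmpk2 and Oas2, which have none, left out, 23 were. The median was 1.37, or 1.00 with those bounds, beside 0.06 over all genes, and 38 of the 42 passed with slide as a block (18.1% of all genes), and 0 of the 2 lower ones did (13.9%). These values share the WT arrays with IL-4 with the WT response. Lgals3bp was 19.4-fold higher (4.28 ± 0.05, adjusted p = 7.63e-12), Rtp4 14.6-fold, Usp18 13.2-fold and Mx2 9.97-fold. Mx1 was at least 10.9-fold higher (adjusted p = 7.20e-08), and Ifi44, well above background on 1 of 3 WT arrays with IL-4, differed by 4.18 ± 0.23 (adjusted p = 1.52e-07). Rsad2 was at least 3.01-fold and Ifit3 at least 1.95-fold higher. Rsad2 passed the filter only through STAT6 ko cells with IL-4, the higher group here, so the filter favoured its call. With a filter that asks for at least 2 groups, 40 members were higher (4853 of all genes). The 2 lower members were Slfn5 at -0.28 and Parp9 at -0.17, neither past the test with slide as a block, and Parp14, Daxx, Tor3a and Isg20 had no call. Averaged over the 48 members, the level per array was 2.12 to 2.20 in STAT6 ko cells with IL-4, 1.93 to 2.00 in STAT6 ko controls, 0.71 to 0.75 in WT cells with IL-4 and 1.97 to 2.05 in WT controls.

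The genes that make, receive and limit the interferon signal moved in both directions. Of 51 listed, 35 were tested. In STAT6 ko cells 14 rose and 4 fell (27.5% and 14.7% of all genes did), and in WT cells 12 rose and 14 fell (26.4% and 30.8%). The responses differed for 23, with 15 lower and 8 higher in WT cells (28.3% and 16.4%). Several of these shares lie near those of all genes. Among 16 ligands, 1 was tested. Ifnb1, the interferon beta gene, and 6 others on the array were not well above background on any array, so a change in these mRNAs was not detectable. The tested one, Ifng, encoding the type II interferon, was well above background on the 3 WT arrays with IL-4 alone, the group through which it passed the filter. Its level in WT cells with IL-4 was above that of WT controls by at least 1.33-fold (adjusted p = 0.0111). In STAT6 ko cells it was not well above background in either group, and no change is given. The receptor chain Ifnar2 rose in both, by 0.66 in STAT6 ko cells and 0.73 in WT cells, and Ifnar1 had changes of 0.03 and -0.12 with no call.

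The transcription factor Irf7 fell in both genotypes. It read -0.46, -0.15 and -0.13 in STAT6 ko cells with IL-4, 0.57, 0.83 and 0.89 in STAT6 ko controls, -1.81, -1.73 and -1.57 in WT cells with IL-4 and 0.77, 0.71 and 0.75 in WT controls. The WT arrays with IL-4 were lowest, followed by the STAT6 ko arrays with IL-4, and the controls were high. The changes were -1.01 ± 0.11 in STAT6 ko cells and -2.44 ± 0.11 in WT cells (adjusted p = 5.87e-05 and 2.23e-08), differing by -1.43 ± 0.15 (adjusted p = 3.96e-05). Irf9, the DNA-binding subunit of the complex, rose by 0.40 in STAT6 ko cells and changed by -0.60 in WT cells (adjusted p = 7.51e-05 and 1.18e-06). Stat2 fell in both, by -0.20 in STAT6 ko cells and -0.42 in WT cells. Tlr4, the LPS receptor, rose by 0.46 in STAT6 ko cells and changed by -1.11 in WT cells (adjusted p = 0.00178 and 1.48e-06), whereas its cofactor Ly96 changed by -0.25 in STAT6 ko cells and rose by 0.49 in WT cells. Tlr7, a sensor of single-stranded RNA, changed by 0.21 in STAT6 ko cells (adjusted p = 0.0606) and rose by 1.54 in WT cells (adjusted p = 7.54e-08).

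Inhibitors of cytokine signalling had the largest rises of the listed pathway genes in WT cells. Socs1, which blocks the Janus kinases, rose by 0.56 ± 0.09 in STAT6 ko cells and 2.09 ± 0.09 in WT cells (adjusted p = 0.000695 and 1.77e-08). Socs3 changed by 0.05 ± 0.17 in STAT6 ko cells (adjusted p = 0.840) and rose by 2.64 ± 0.17 in WT cells (adjusted p = 3.86e-07). The phosphatase gene Ptpn6 changed by -0.13 in STAT6 ko cells and -0.93 in WT cells (adjusted p = 0.0385 and 4.79e-08).

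**Figure D5:**
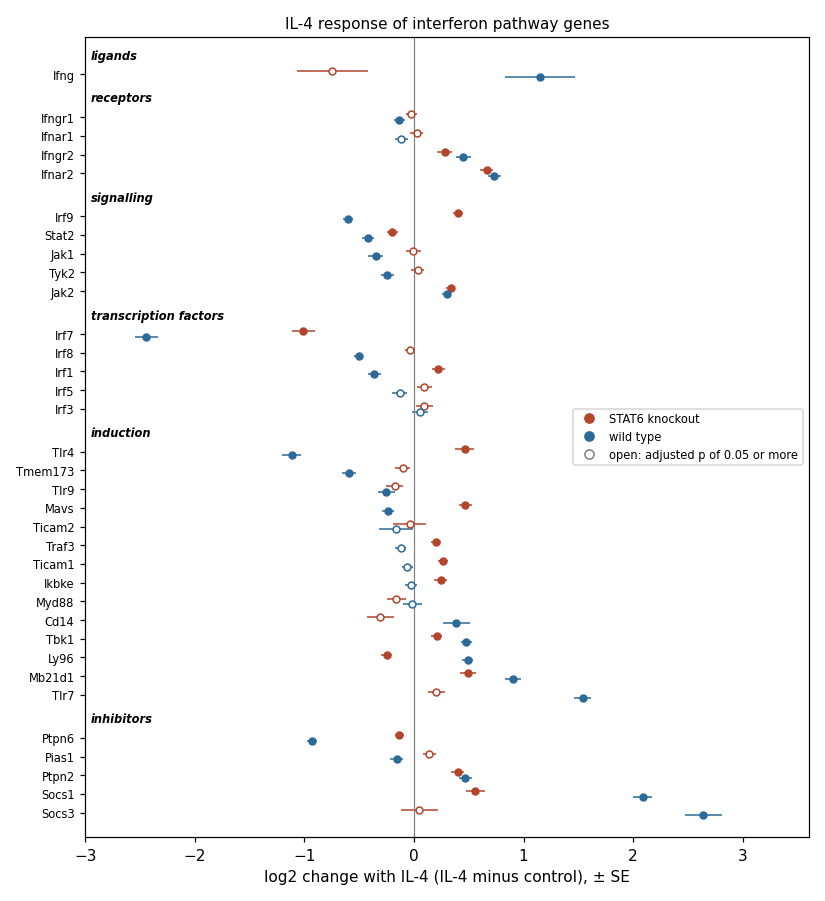
Log2 change with IL-4 (IL-4 minus control, horizontal axis) with its SE for 34 of the 35 tested genes of the interferon pathway, by role. Red points are STAT6 ko cells, blue points WT cells, and open points had an adjusted p of 0.05 or more. Irf7 and Tlr4 lie furthest left and Socs1 and Socs3 furthest right in WT cells.

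Markers of other cells that a spleen preparation can hold were read beside these results. Of 8 macrophage and monocyte marker symbols 5 were tested. Adgre1 and Emr1 among the 8 are the newer and older symbol of the same gene, and the array uses Emr1. The mean level per array was 2.60 to 2.75 in STAT6 ko cells with IL-4 and 2.83 to 2.98 in STAT6 ko controls. It was 1.76 to 1.83 in WT cells with IL-4 and 2.78 to 2.84 in WT controls. The macrophage means were lowest in WT cells with IL-4, as the members were, but the markers differed among themselves, with 1 rise and 1 fall in STAT6 ko cells and 3 falls in WT cells. Mpeg1, a pore-forming protein gene, changed by -0.16 ± 0.09 in STAT6 ko cells (adjusted p = 0.189) and -3.73 ± 0.09 in WT cells (adjusted p = 3.37e-10). Cd68 changed by -0.92 in STAT6 ko cells and -0.45 in WT cells, both past the test, and Itgam by -0.24 (adjusted p = 0.146) and 0.17 (adjusted p = 0.254). Emr1 changed by 0.55 in STAT6 ko cells and -0.92 in WT cells, while Csf1r had changes of -0.25 (adjusted p = 0.281) and -0.12 (adjusted p = 0.593), and on none of the 12 arrays was Cd163 well above background. Of 6 markers of plasmacytoid dendritic cells, which make much interferon, 5 were tested, and Klk1 was not well above background on any array. Their means were 2.80 to 2.94, 2.93 to 3.11, 3.16 to 3.30 and 3.11 to 3.16 in the same order of groups. These means hide opposite moves. In STAT6 ko cells 1 marker rose and 2 fell, and in WT cells 3 rose and 2 fell. Cox6a2 rose most, by 2.12 in STAT6 ko cells and 2.86 in WT cells. Ccr9, dim with IL-4, and Tcf4 fell in both genotypes, and the STAT6 ko arrays of Tcf4 with and without IL-4 overlapped. Of 6 natural killer cell markers 2 were tested, at means of 0.51 to 0.63, 0.69 to 0.95, 0.53 to 0.61 and 0.90 to 1.02 in that order of groups. Nkg7 fell in both genotypes, with changes of -0.30 in STAT6 ko cells and -0.28 in WT cells, and Prf1 changed by -0.25 (adjusted p = 0.0808) in STAT6 ko cells and -0.46 in WT cells (adjusted p = 0.00336), with Ncr1, Klrb1c and Klrd1 not well above background on any array, and of 4 neutrophil markers 0 were tested. T cell markers were tested for 7 of 9 (0 rose and 3 fell in STAT6 ko cells, 2 rose and 1 fell in WT cells), with Cd8a not well above background on any array, conventional dendritic cell markers for 3 of 6, with Xcr1 and Clec9a likewise, and red cell and platelet markers for 2 of 4. The part of these cells in the members' changes was not tested.

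More than 1 probe passed the filter for 17 members. The second probes of Isg15 changed by 1.03 in STAT6 ko cells and -0.85 in WT cells, of Samd9l by -0.52 and -3.33, and of Lgals3bp by -0.18 and -3.50. The probes of other members differed. For Adar the brighter probe (chr3:89555266-89555325, mm9, plus strand) gave 0.51 in STAT6 ko cells and -0.16 in WT cells, and a probe further along the gene (chr3:89557158-89557217) 0.15 and -0.90. For Slfn8 the second probe (chr11:82830985-82831044, mm9, minus strand) gave -0.33 in STAT6 ko cells and -0.62 in WT cells, where the one described above (chr11:82815804-82815863) gave -1.78 in WT cells. For Trim25 the second probe gave 0.16 in STAT6 ko cells and -0.17 in WT cells, beside -0.09 and -0.98 for the brighter one. The second probe of Tor3a, well above background on all arrays, was not called in STAT6 ko cells or for the difference between responses. The brighter Tor3a probe was called for both. The second probes of Oas1a and Pnpt1 were called higher with IL-4 in STAT6 ko cells, where the brighter ones had no call. A second probe of Ifi203, nearly as bright, was called lower in STAT6 ko cells, at -0.44. Its dimmer probes gave -0.21 and -0.25 there with no call. The dimmer second probe of Ifi204 was called lower in STAT6 ko cells, at -0.65. The Slfn5 probe used here lies at chr11:82765536-82765595 (mm9, plus strand), and the other one for this gene, at chr11:82774907-82774966, was well above background on 1 array and changed by 0.35 in STAT6 ko cells and -1.84 in WT cells. Which transcripts these probes read was not tested.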

How the data were processed

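The 12 Agilent scanner files, 1 per sample, hold spot intensity values on a linear scale, which the authors deposited as Feature Extraction (version 10.7.3.1) output, per the file headers already background-subtracted in the processed signal column. The gene-level file holds values on a log2 scale as the authors deposited them. How it was normalized is not given in the sources used here, and it served as an alternative.

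The level was log2 of the processed signal minus the 75th percentile of its array. After removal of outlier spots, repeated spots were averaged to 55681 probes. To be kept, a probe had to be well above background in 1 whole group (3 of 3 arrays), with 2 or more values in each group, which 22940 were. Of several kept probes the brightest on average represented the gene name, giving 16497 genes. Group means over the 12 arrays were fitted with limma 3.58.1 (lmFit, eBayes; R 4.3.3), with 5 contrasts and Benjamini-Hochberg adjustment over all genes; called means an adjusted p under 0.05. The arrays' number limits the precision. Figures used matplotlib 3.10.9. The fit was tested on simulated data.

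Members, pathway genes and markers were chosen with earlier results of these data known. Values on every array are given for the members with the largest called change with IL-4 (8 in WT cells, 4 rises and 4 falls in STAT6 ko cells), the 4 with the largest called difference between genotypes without and with IL-4, and the first member of each role group. Replicate numbers shared by groups were checked for pairing: deviations of same-numbered arrays correlated with r of 0.03 to 0.07 in WT cells and -0.02 to 0.39 in STAT6 ko cells, so the numbers were not taken to pair samples. Alternatives were other scalings, background correction, filters, probe rules, spreads, slide and replicate blocks, the authors' values and leaving out each array. Promoter windows are from RefSeq. The values of 1 pathway gene are not reported here.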

Additional observations from a re-analysis of the deposited data

Results flagged for a closer look

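Groups of 3 arrays are too small for a check on single outlying arrays, so the results below are differences between genotypes that passed the test. The difference is the WT response to IL-4 minus the STAT6 ko response, and it was negative for 42 of 48 members. Values follow for the 17 of these whose level was given on every array, not for the 17 largest. On the log2 scale the differences were -3.91 for Rtp4, -3.83 for Lgals3bp, -3.52 for Ifit1, -3.51 for Usp18, -3.09 for Mx2, -2.81 for Samd9l, -2.25 for Oasl1 and -1.98 for Ly6a. They were -1.95 for Ifih1, -1.83 for Isg15, -1.45 for Slfn8, -1.35 for Herc6, -1.18 for Zbp1 and -0.55 for Eif2ak2. The fitted values of Mx1 (-4.13), Ifi44 (-3.87) and Rsad2 (-2.37) rest on WT arrays with IL-4 of which 0, 1 and 0 were well above background, so they show a direction and have no place in the order of sizes.

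Of the pathway genes, 15 had a negative and 8 a positive difference, and those of 2-fold or more are named here. Tlr4 differed by -1.58, Irf7 by -1.43 and Irf9 by -1.002. Tlr7 differed by 1.33, Socs1 by 1.53 and Socs3 by 2.59. The fitted value of Ifng, 1.89, combines 3 groups with 0 arrays well above background and is no measured size.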

How the results depend on the processing

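Over the 10 other settings, 16 to 28 members were called higher with IL-4 in STAT6 ko cells, 38 to 42 lower in WT cells, 39 to 43 with a negative difference between responses and 38 to 42 higher in STAT6 ko than in WT cells with IL-4. Leaving out 1 array at a time gave 18 to 24, 41 to 43, 41 to 43 and 41 to 43 for these. Of all genes, the 10 settings gave 3121 to 5913, 3780 to 5532, 3241 to 4716 and 2979 to 4883, beside 4539, 5080, 4676 and 4919. With 1 array left out they gave 3589 to 4905, 4443 to 5311, 3893 to 5304 and 4213 to 5090. With no filter on dim probes more genes were tested. Small counts moved more. Falls in STAT6 ko cells (11) became 2 under median scaling and 5 with no filter on dim probes. They became 4 with the compared arrays only, 5 with slide as a block and 5 to 11 with 1 array left out. Those of all genes (2430) became 1280, 1821, 1726 and 1940 in the same order, and 1935 to 2554 with 1 array left out. The 1 rise in WT cells became 0 under median scaling, with no filter, with slide as a block, with the replicate block and in the authors' values, and 0 to 1 with 1 array left out. The 2 members lower in STAT6 ko cells with IL-4 became 1 with no filter, 1 with the compared arrays only and 0 with the slide block, and 1 to 2 with 1 array left out (1 without the second WT or the second STAT6 ko array with IL-4). Without IL-4 the 2 higher became 0 under median scaling and 1 with no filter, with the compared arrays only and with the slide block, and 1 to 3 with 1 array left out. The 10 lower became 21 under median scaling, 4 under quantile scaling, 2 with no filter, 2 with the compared arrays only, 2 with the slide block and 6 with the replicate block, and 2 to 11 with 1 array left out. Of all genes, the 1149 lower without IL-4 became 5103, 1038, 165, 456, 268 and 931 in the same order, and 250 to 2323 with 1 array left out. Quantile scaling gave 1 positive difference between responses. The replicate block, run although the numbers were not taken to pair samples, moved no other count by over 1.5 times. In STAT6 ko cells Ddx58 turned to -0.12 under quantile scaling and -0.14 in the authors' values, and under median scaling Lgals3bp turned to 0.00 (0.000641) and Ptpn6 to 0.0204. Leaving out 1 array, for at least 1 choice of it, ended the STAT6 ko calls of Cmpk2, Daxx, Dhx58, Eif2ak2, Ifi203, Ifi204, Ifi35, Ifi44, Ifitm3, Lgals3bp, Ly6e, Parp14 and Zbp1, the WT call of Slfn5 and the call of Parp14 for the difference between responses. The cause of these moves was not tested. Dim probes limit Mx1, Ifit3, Cmpk2, Oas2, Rsad2 and Ifi44 in WT cells with IL-4.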
